A study of Homo sapiens with 24 samples.

Results

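The TAZ-CAMTA1 fusion was compared directly with TAZ4SA, a hyperactive form of one of its parents, in SW872 cells. The members were the 3 libraries labelled TAZ-CAMTA1 and the 3 labelled TAZ4SA, 6 of the 24 libraries of the study, taken by their labels. They were described over 19915 genes, those whose mean over these 6 libraries reached 5 counts, out of 60279 listed. SW872 is an established human liposarcoma line, and poly(A) RNA was sequenced from lines stably transduced with a pBabeNeo retrovirus and selected with G418. TAZ-CAMTA1 joins the N-terminal part of TAZ, encoded by WWTR1, to the C-terminal part of CAMTA1. TAZ4SA is TAZ with 4 serines, the sites of the Hippo kinases, replaced by alanine. EV cells carried the empty vector, and YAP-TFE3 and YAP5SA, used below for comparison, are the corresponding fusion and hyperactive parent of the paralogue YAP. All 5 groups shared the parental line, the vector and the time of collection, 48 h after confluence, and each held 3 libraries from separate transductions. Each line was a drug-selected pool that expressed its protein from a retroviral vector, which limits every group as a model of the tumour that carries the fusion. SW872 cells are not endothelial, whereas the TAZ-CAMTA1 fusion is known from epithelioid haemangioendothelioma.

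TAZ and YAP are transcriptional coactivators without a DNA-binding domain of their own. In dense cells the Hippo kinases phosphorylate them, and they are then held in the cytoplasm and degraded. In the nucleus they bind TEAD factors, which recognise a short DNA element at enhancers and promoters of genes such as CCN1 and CCN2. The fusion keeps the TEAD-binding part of TAZ and gains from CAMTA1 a transactivation domain, a DNA-binding TIG domain and a nuclear localisation signal, so both proteins address TEAD while their C-terminal parts differ.

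The genes that make up the constructs came first. CAMTA1 was counted at 139, 141 and 152 CPM (counts per 1000000 of the scaled library) in the TAZ-CAMTA1 libraries and at 24.7, 24.9 and 23.5 CPM in the TAZ4SA-labelled ones, against 21.4 ± 2.05 CPM in EV (mean ± SD, n = 3). The groups did not overlap, and the log2 difference, here always TAZ-CAMTA1 minus TAZ4SA, was 2.56 (SE 0.09, edgeR adjusted p = 3.4e-16). WWTR1 stood at 179.7, 183 and 179 CPM in TAZ-CAMTA1 and at 134, 133 and 134 CPM in the libraries labelled TAZ4SA, with 225, 203 and 184 CPM in EV. It was therefore lowest in the TAZ4SA-labelled libraries (log2 difference 0.44, SE 0.08, edgeR adjusted p = 5.75e-05). Each TAZ-CAMTA1 library also lay below each EV library, although the fusion holds part of TAZ. The gene count thus did not bear out the TAZ4SA label, nor did it show the TAZ part of the fusion. Gene counts do not tell a transduced cDNA from the resident gene. Whether reads of the TAZ4SA cDNA, or of the TAZ part of the fusion, were counted under WWTR1 is not given in the sources used here. The group is called TAZ4SA-labelled throughout, and every direction given below rests on that label.

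The 6 libraries held 25661463 to 29919655 counts, mitochondrial genes took 4.11% to 5.65% of them, and no pair of replicates was identical. The first principal component of the 500 most variable genes held 95.64% of the variance and separated the groups, between 40.82 and 41.68 for TAZ-CAMTA1 and between -42.8 and -39.79 for TAZ4SA-labelled. Markers of other cell types were also followed. The 8 mesenchymal markers summed to 7761 to 10048 CPM in TAZ-CAMTA1, 2393 to 3610 CPM in TAZ4SA-labelled and 6472 to 7557 CPM in EV. The epithelial markers summed to 410.1 to 517 CPM, 1895 to 2160 CPM and 208 to 223 CPM in the same order. Of these 9 markers KRT19 and GRHL2 were below the count filter and left out of the sums. The 17 of 19 endothelial markers that passed the count filter summed to 843 to 929.9 CPM, 1015 to 1242 CPM and 861 to 980.3 CPM. The 4 of 8 blood cell markers that passed it never summed to more than 4.11 CPM. Of the 253 genes named below, 82 overlap another annotated gene on the same strand and 138 on the other, so part of their counts could belong to the partner. In bulk RNA, fewer cells of a kind and less RNA per cell cannot be told apart, and the part of cell composition in the results below was not tested.

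The direct comparison called 10797 of 19915 genes, 54.2%, at an edgeR adjusted p under 0.05, with 5398 higher in TAZ-CAMTA1 (27.1%) and 5399 lower (27.1%). Each count of higher and lower members of a list below is to be read against these shares. The median log2 difference over all genes was 0.03, and the central 90% of genes, from the 5th to the 95th percentile, lay between -1.63 and 1.42. Scaling by total counts shifted all differences by 0.19 and called 7449 genes higher and 3801 lower, so the direction of differences smaller than this depends on the scaling. At least 2-fold and called were 3832 genes (19.2%), with 1968 higher (9.88%) and 1864 lower (9.36%). The most extreme differences were lower ones: 479 genes (2.41%) were called at 8-fold or more, 128 higher and 351 lower. All TAZ-CAMTA1 libraries held no more than 3 counts for 197 genes (0.989%), and all TAZ4SA-labelled ones for 138 (0.693%). The 6 libraries did not overlap for 12317 genes (61.8%). Against EV, TAZ-CAMTA1 had 998 called genes (5.01%) and the TAZ4SA-labelled libraries 9907 (49.7%); these 2 comparisons share the EV libraries. Of the former 704 were higher (3.54%) and 294 lower (1.48%), and of the latter 5035 higher (25.3%) and 4872 lower (24.5%). List counts relative to EV are to be read against these shares.

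**Figure D1:**
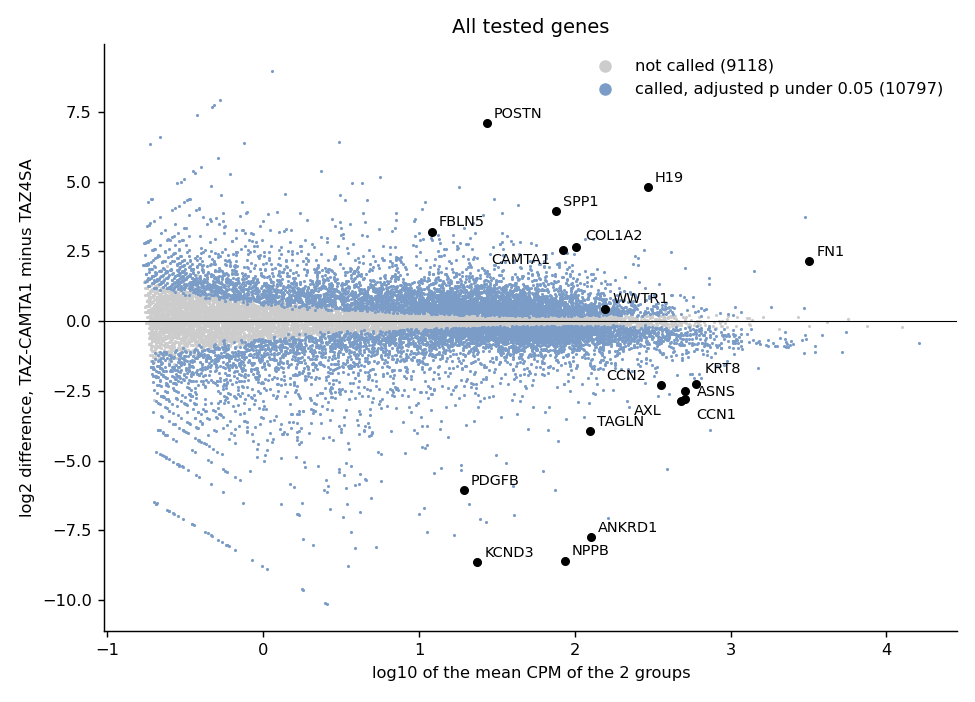
Each point is 1 of the 19915 tested genes, placed by the log10 of its mean CPM over both groups and by its log2 difference, TAZ-CAMTA1 minus TAZ4SA-labelled. Blue points are the 10797 called genes and 18 genes of the text are in black, from POSTN at 7.10 to KCND3 at -8.65. The lines of points at the lower left are genes with few or no counts in 1 of the groups, whose fitted difference is set by the model and is no bound.

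Among genes whose mean count reached 100, those furthest below zero were almost silent in TAZ-CAMTA1 and EV and well expressed in the TAZ4SA-labelled libraries. NPPB, which encodes the natriuretic peptide BNP, was counted at 0.416, 0.445 and 0.461 CPM in TAZ-CAMTA1 and 173, 194 and 149.6 CPM in TAZ4SA-labelled, a 386-fold difference (log2 -8.59, SE 0.34, edgeR adjusted p = 4.27e-15), with 0.0969 CPM in EV. KCND3, a voltage-gated potassium channel, stood at 0.0378, 0.137 and 0.153 against 37.5, 47.2 and 56.7 CPM (log2 -8.65, SE 0.35). Neither gene overlapped between the groups, and the same held for each gene of this group by the naming rule. KISS1, the precursor of the kisspeptins, was at 0.113, 0.274 and 0.0921 against 38.4, 39.1 and 22.3 CPM, and INHBB, a subunit of activins and inhibins, at 0, 0.0684 and 0.123 against 7.34, 9.94 and 7.56 CPM. KRT81, a hair keratin, was at 2.57, 2.94 and 1.69 against 367, 349 and 249.96 CPM, TNFSF18, the ligand of the receptor GITR, at 0.567, 0.342 and 0.184 against 45.5, 52.7 and 48.5 CPM, and HSD17B2, an enzyme that inactivates sex steroids, at 0.151, 0.239 and 0.0921 against 22.5, 22.4 and 14.7 CPM. The list also held the transcribed pseudogene SFTA1P (log2 -7.57) and 3 genes of the pregnancy-specific glycoproteins, PSG1, PSG4 and PSG5, whose near-identical copies make the split of their reads uncertain. PSG1 was at most at 3 counts in each TAZ-CAMTA1 library, so it was at least 103-fold lower there, with 3 counts per library as the floor. The other gene so named, ANKRD1, is described with the YAP/TAZ targets.

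At the same mean count, the genes furthest above zero were expressed in EV too and low in the TAZ4SA-labelled libraries. POSTN, the matricellular protein periostin, was counted at 54.5, 48.6 and 58.8 CPM in TAZ-CAMTA1, 0.279, 0.512 and 0.384 CPM in TAZ4SA-labelled and 22.4, 20.2 and 15.3 CPM in EV, a 137-fold difference between the first 2 (log2 7.10, SE 0.39, edgeR adjusted p = 5.91e-13). H19, an imprinted non-coding RNA, stood at 639, 574 and 488 CPM against 22.2, 25.7 and 13.0 CPM (log2 4.81, SE 0.42) and SPP1, osteopontin, at 159, 149 and 119 CPM against 10.8, 9.90 and 7.17 CPM (log2 3.94, SE 0.24). For these 3 genes the TAZ-CAMTA1 libraries also lay above those of EV, where the difference passed the threshold for POSTN and SPP1 (edgeR adjusted p = 0.000468 and 0.000344) and not for H19 (0.0828). The adhesion receptor ADGRF5 (log2 5.18, SE 0.43), the Tec-family kinase BMX (4.95, SE 0.39), the selenium transporter SELENOP (4.94, SE 0.55) and the chemerin receptor CMKLR1 (4.37, SE 0.31) were higher by at least 16-fold. RANBP3L, TRPA1, SPARCL1, PDE11A and CYP4X1 completed the list with log2 differences of 4.80, 4.35, 4.27, 4.18 and 4.01. TRPA1 is an irritant-gated ion channel and PDE11A a cyclic nucleotide phosphodiesterase.

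The promoters of CCN2 and ANKRD1 are shown because both genes are established TEAD targets and both parted the groups. The bases run 5′ to 3′ on the strand of the gene and end just before its RefSeq start in GRCh38.p14, with the TEAD letters GGAATG, which read CATTCC on the other strand, in capitals. CCN2 (chr6:131951373-131951622, minus strand) holds 3 of them, 169, 104 and 95 bases before the start, and ANKRD1 (chr10:90921088-90921337, minus strand) holds 2, at 220 and 128 bases.
CCN2: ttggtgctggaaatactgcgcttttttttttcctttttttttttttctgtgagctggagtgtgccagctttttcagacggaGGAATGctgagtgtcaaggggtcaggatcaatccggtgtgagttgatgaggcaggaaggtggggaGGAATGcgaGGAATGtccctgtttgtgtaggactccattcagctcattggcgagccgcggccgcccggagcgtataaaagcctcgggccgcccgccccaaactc
ANKRD1: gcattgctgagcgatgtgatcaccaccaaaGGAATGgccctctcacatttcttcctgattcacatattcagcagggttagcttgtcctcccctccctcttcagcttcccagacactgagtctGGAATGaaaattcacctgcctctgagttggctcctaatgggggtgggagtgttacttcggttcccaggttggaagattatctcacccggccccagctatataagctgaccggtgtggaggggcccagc

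YAP/TAZ targets were mostly lower in TAZ-CAMTA1. Of 22 genes in the list, 18 were lower, 2 were higher and 2 did not pass, with a median log2 difference of -0.98 against 0.03 over all genes. The median of the same genes against EV was 0.35 for TAZ-CAMTA1, with 9 of them higher and 0 lower, and 1.40 for the TAZ4SA-labelled libraries, with 18 higher and 0 lower. CCN1, a secreted matricellular protein, was counted at 120.2, 133 and 134 CPM in TAZ-CAMTA1, 869, 897 and 904 CPM in TAZ4SA-labelled and 44.5, 42.3 and 35.9 CPM in EV. The 3 groups did not overlap and TAZ-CAMTA1 lay between the others, 6.90-fold below TAZ4SA-labelled (log2 -2.79, SE 0.11, edgeR adjusted p = 4.27e-15) and above EV (log2 1.65, edgeR adjusted p = 2.15e-10). Its relative CCN2, connective tissue growth factor, showed the same order, at 115, 120.4 and 126 CPM, 626, 599.8 and 549 CPM and 26.7, 20.7 and 16.5 CPM (log2 -2.30, SE 0.19, edgeR adjusted p = 3.95e-10).

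ANKRD1, a nuclear cofactor of muscle, followed another order. Its TAZ-CAMTA1 libraries, at 0.908, 1.54 and 1.04 CPM, overlapped those of EV, at 1.59, 0.838 and 0.824 CPM, while the TAZ4SA-labelled libraries stood at 224, 254 and 276 CPM, 215-fold higher (log2 -7.75, SE 0.39, edgeR adjusted p = 1.32e-13). AXL, a receptor tyrosine kinase, was counted at 116, 119.7 and 113 CPM against 892, 879.8 and 748 CPM (log2 -2.85, SE 0.18). F3, the coagulation initiator tissue factor, and TGFB2, a TGF-beta ligand, were at 7.11, 8.28 and 7.64 against 36.3, 40.7 and 32.8 CPM and at 52.4, 57.6 and 50.6 against 199.9, 227 and 227 CPM (log2 -2.25 and -2.03). CRIM1, a transmembrane BMP antagonist (log2 -1.97, SE 0.10), AMOTL2, a junctional protein that binds YAP (-1.71, SE 0.10), the kinase NUAK2 (-1.15, SE 0.14) and the forkhead factor FOXF2 (-1.02, SE 0.15) were at least 2-fold lower. Smaller lower differences were found for the nucleotidase NT5E (-0.98), the membrane repair protein MYOF (-0.98), the growth arrest gene GADD45A (-0.97), the GTPase activator ASAP1 (-0.85), the guanine nucleotide exchange factor DOCK5 (-0.40), the growth factor carrier IGFBP3 (-0.75), FJX1 (-0.72) and the Hippo kinase LATS2 (-0.31). The 2 higher genes were the exchange factor ARHGEF17 (0.27) and the RNA-binding RBMS3 (0.51). Calls of 5 of these genes were lost when 1 library was left out. RBMS3 then stood at 0.44 without TAZ-CAMTA1 replicate 3 and at 0.38 without TAZ4SA replicate 1, and ARHGEF17 at 0.19 to 0.28 without TAZ-CAMTA1 replicate 1 or 2 or TAZ4SA replicate 2 or 3. IGFBP3 stood at -0.63 without TAZ-CAMTA1 replicate 3, -0.70 without TAZ-CAMTA1 replicate 2 and -0.53 without TAZ4SA replicate 2, FJX1 at -0.67 without TAZ-CAMTA1 replicate 2, and LATS2 at -0.28 to -0.25 without TAZ-CAMTA1 replicate 1 or 2 or TAZ4SA replicate 2. PTPN14, at 166, 174 and 179 against 172, 186 and 186 CPM, and CCDC80, at 134, 133 and 115 against 154, 167 and 119 CPM, did not pass; without TAZ4SA replicate 3 CCDC80 was called, at -0.34.

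**Figure D2:**
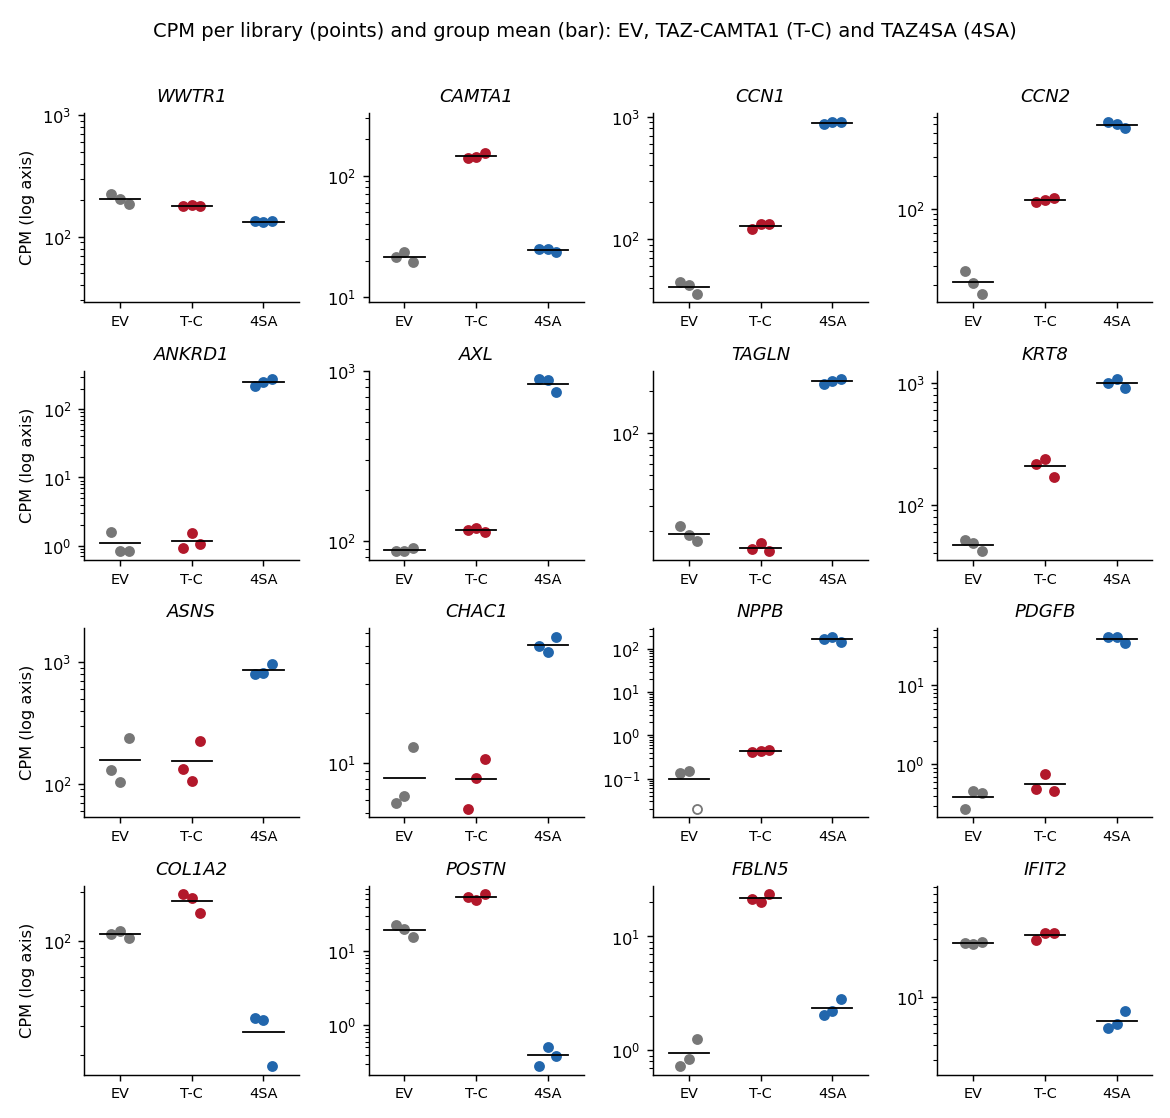
CPM of 16 genes on log axes, 1 point per library and a bar at the group mean, for EV (grey), TAZ-CAMTA1 (T-C, red) and TAZ4SA-labelled (4SA, blue). CCN1 and CCN2 of TAZ-CAMTA1 lie between EV and TAZ4SA-labelled, ANKRD1, CHAC1 and ASNS overlap EV, and POSTN, COL1A2 and IFIT2 are lowest in TAZ4SA-labelled; the open circle of NPPB is a library with no count, drawn at the foot of the axis.

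The TEAD letters were found in 7 of the 16 target promoters that RefSeq's table holds (43.8%), those of ANKRD1, CCN2, FOXF2, LATS2, NUAK2, PTPN14 and TGFB2. Over the 300 bases around each start, both strands, 11.3% of the 12949 tested genes with a promoter sequence held them. Of 3 lists described below, they were in 6 of 28 contractile promoters (21.4%), 7 of 34 interferon promoters (20.6%) and 0 of 25 amino acid response promoters. The share was 13.4% among genes at least 2-fold higher and 14.2% among those at least 2-fold lower, while the same letters reversed but not complemented, GTAAGG or CCTTAC, were in 6.27% of all, 6.26% of the higher and 6.53% of the lower. The AP-1 letters TGACTCA or TGAGTCA were in 3.33% of all. They were in 3.17% of the genes at least 2-fold higher and 7.18% of those at least 2-fold lower. Among called genes at 8-fold or more, the AP-1 letters were in 6 of 88 higher promoters (6.82%) and 19 of 190 lower ones. The TEAD letters were in 18 of these 88 (20.5%) and 30 of these 190 (15.8%), so their order was the reverse of that at 2-fold. A match is only a description of the letters in this window. CCN1 had no entry.

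The Hippo pathway itself parted in both directions. Of 24 kinases and regulators 7 were higher and 10 lower, with a median of -0.11 that turned to 0.08 under total-count scaling. NF2, the tumour suppressor merlin, was counted at 65.2, 66.6 and 64.4 against 227, 209 and 168 CPM (log2 -1.62, SE 0.11, edgeR adjusted p = 3.15e-11), and AJUBA, a scaffold that restrains LATS kinases, at 205, 225 and 259 against 459, 482 and 459 CPM (-1.02, SE 0.15). WWC3, a relative of KIBRA, was also lower (-0.94, SE 0.12). The kinase cofactors MOB1A and MOB1B (log2 0.63 and 1.03), the kinase LATS1 (0.54) and the upstream kinase TAOK1 (0.91) were higher. Among the DNA-binding partners TEAD1 was higher, at 361, 397 and 416 against 188, 195 and 242 CPM (log2 0.91, SE 0.13), and so was YAP1 (0.74, SE 0.10). TEAD3 (-0.28) and TEAD4 (-0.31) were slightly lower, but TEAD3 lost its call without TAZ-CAMTA1 replicate 2 (-0.24), TAZ4SA replicate 1 (-0.26) or TAZ4SA replicate 3 (-0.25), and TEAD4 without TAZ-CAMTA1 replicate 3 (-0.27) or TAZ4SA replicate 1 (-0.27). TEAD2, at 70.5, 64.8 and 54.2 against 62.6, 56.1 and 46.9 CPM, did not pass.

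The genes for which the study lists human primers were also followed, of which CCN1, CCN2, AJUBA and SPP1 are given above. FBLN5, an elastic fibre protein, was counted at 21.4, 20.3 and 23.5 CPM in TAZ-CAMTA1, 2.03, 2.22 and 2.80 CPM in TAZ4SA-labelled and 0.726, 0.838 and 1.26 CPM in EV. Its 3 groups did not overlap and TAZ-CAMTA1 was highest, 9.20-fold above TAZ4SA-labelled (log2 3.20, SE 0.20, edgeR adjusted p = 5.7e-12). MAP1A, a neuronal microtubule protein, was at 23.8, 25.2 and 21.6 against 6.66, 5.93 and 6.10 CPM (log2 1.91, SE 0.15) and GPC4, a cell-surface proteoglycan, at 6.73, 7.76 and 6.32 against 3.91, 4.39 and 3.72 CPM (0.79, SE 0.15). EV lay above both groups for MAP1A, at 33.4 CPM, and below both for GPC4, at 1.63 CPM. LAMA1, a laminin chain, was at 7.38, 8.35 and 7.18 against 6.94, 7.72 and 6.52 CPM and POLR2A, a subunit of RNA polymerase II, at 300.0, 299 and 276 against 276, 258 and 245 CPM, and neither passed. Of the ATAC histone acetyltransferase complex, which the study also examined, ZZZ3 was higher (0.86, SE 0.18) and YEATS2, at 122, 122.9 and 113 against 128, 136 and 124 CPM, did not pass. Of all 13 subunits 4 were higher, with KAT2B at log2 1.54 (SE 0.12), and 4 were lower.

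Genes of the amino acid response were lower in TAZ-CAMTA1 almost without exception. The factor ATF4, translated when amino acids are short or the endoplasmic reticulum is stressed, switches on amino acid synthesis, uptake and tRNA charging. Of its 30 listed targets 28 were lower, 26 of them at least 2-fold, with a median log2 difference of -1.62. With edgeR 0 were higher, and neither an unadjusted p under 0.05 nor DESeq2 gave any; the same was true of the 0, 0 and 0 higher members of the ribosomal, AP-1 and epithelial lists below. ASNS, asparagine synthetase, was counted at 131, 104 and 223 CPM in TAZ-CAMTA1, 801, 810.0 and 971 CPM in TAZ4SA-labelled and 129, 104 and 239 CPM in EV (log2 -2.49, SE 0.27, edgeR adjusted p = 5.69e-08). CHAC1, which degrades glutathione, stood at 5.33, 8.11 and 10.5 against 50.3, 46.6 and 57.1 CPM (log2 -2.68, SE 0.34) and the stress-induced factor ATF3 at 5.67, 7.39 and 6.82 against 41.4, 43.8 and 51.0 CPM (-2.77, SE 0.24). The secreted glycoprotein STC2 was at 46.0, 46.5 and 49.98 against 221, 251 and 215 CPM (-2.27, SE 0.24). The TAZ-CAMTA1 libraries overlapped those of EV for ASNS and CHAC1. Against EV 0 of the 30 were called in TAZ-CAMTA1 in either direction by edgeR, beside 5.01% of all genes. An unadjusted p under 0.05 was reached by 3, and the median was -0.03. In the TAZ4SA-labelled libraries 29 were higher than in EV, beside 25.3% of all genes, with a median of 1.79. FGF21, at 0.113, 0 and 0.0307 against 0.279, 0.427 and 0.345 CPM, and 1 other gene did not pass. FGF21 (log2 -2.82) rested on few counts and was called by edgeR without TAZ-CAMTA1 replicate 1 (-4.11), at a mean of at least 1 count (-2.85), with the 6 libraries alone (-2.81) and with the replicate block (-2.83), and by DESeq2 (-2.94).

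An ATF4 element, TGATGNAA or TTNCATCA, chosen after the values were seen, was found in 7 of 25 promoters of this list and in 1.85% of all tested ones. The 7 were AARS1, ASNS, ATF3, CHAC1, FGF21, SLC3A2 and SLC7A1. The ATF3 promoter is shown as an example, from 250 to 81 bases before its RefSeq start (chr1:212565157-212565326, plus strand, GRCh38.p14), with the element in capitals 191 bases before the start.
ATF3: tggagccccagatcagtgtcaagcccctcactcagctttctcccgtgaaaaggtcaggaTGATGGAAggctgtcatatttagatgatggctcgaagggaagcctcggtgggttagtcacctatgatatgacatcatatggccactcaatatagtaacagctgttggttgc

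Transcripts for cytosolic ribosomal proteins were also lower as a group. Of 80 tested, 73 were lower and 0 higher, with a median of -0.73. RPS19 stood at 656, 599.9 and 508 CPM against 1208, 1167 and 1079 CPM (log2 -0.97, SE 0.11, edgeR adjusted p = 1.03e-07). RPL36 (-1.001) and RPL12 (-0.99) were lower by about as much. The other 7 did not pass. Against EV the list had a median of -0.31 in TAZ-CAMTA1, with 22 members lower, and of 0.39 in TAZ4SA-labelled, with 59 higher. These genes have processed copies elsewhere in the genome, and how reads shared with them were counted is not given in the sources used here. They are also short, and differences moved with length: the median log2 difference was -0.16 in the shortest 20% of protein-coding genes by summed exon length, up to 2919 bases, and rose over the next classes of equal size, -0.06, 0.02 and 0.08, to 0.15 in the longest. Of the ribosomal genes 37 were in that shortest class, and their median was -0.68; the part of length in this result was not tested.

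Glycolysis and the hypoxia response were lower too, with 24 of 35 genes lower, 3 higher and a median of -0.69. Relative to EV, 1 was higher and 0 lower in TAZ-CAMTA1 (median -0.03). In TAZ4SA-labelled 20 were higher than in EV and 1 lower (median 0.58). NDRG1, a stress-induced growth suppressor, was counted at 126, 83.9 and 65.5 against 594, 725 and 469.7 CPM (log2 -2.70, SE 0.28, edgeR adjusted p = 3.42e-08), the neuronal enolase ENO2 at 10.6, 9.10 and 9.30 against 68.6, 82.1 and 57.0 CPM (-2.84, SE 0.22) and the vasodilator peptide ADM at 11.9, 9.68 and 7.83 against 48.1, 55.8 and 42.7 CPM (-2.32, SE 0.19). CA9, a carbonic anhydrase of hypoxic tumours, was at 1.17, 0.376 and 0.0614 against 8.62, 13.9 and 4.53 CPM and varied widely between replicates (-4.13, SE 0.96). A second carbonic anhydrase, CA12, was higher, at 6.32, 6.77 and 4.11 against 1.79, 1.45 and 1.30 CPM (1.91, SE 0.23), as were the oxygen sensor EGLN3 (0.97) and the collagen prolyl hydroxylase subunit P4HA1 (0.50). Nuclear genes of oxidative phosphorylation had a median of -0.18 that became 0.01 under total-count scaling, with 30 of 77 lower and 5 higher. None of those 77 was called at 2-fold or more, and 43 of them were in the shortest class, with a median of -0.17. Of 13 mitochondrial genes 3 were higher and 1 was lower.

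The contractile cytoskeleton was lower in TAZ-CAMTA1 than in the TAZ4SA-labelled libraries. Actin, myosin and their partners are largely driven by SRF with its actin-sensing cofactors MRTFA and MRTFB. Of 31 genes tested 22 were lower and 5 higher, with a median of -0.79. In TAZ-CAMTA1 7 were higher than in EV and 0 lower (median 0.15). In TAZ4SA-labelled 25 were higher than in EV and 2 lower (median 0.79). TAGLN, an actin-binding protein of smooth muscle, was counted at 14.9, 16.3 and 14.3 CPM in TAZ-CAMTA1, 226, 235 and 243 CPM in TAZ4SA-labelled and 21.6, 18.7 and 16.9 CPM in EV, 15.4-fold apart in the first 2 (log2 -3.95, SE 0.22, edgeR adjusted p = 6.11e-13). MYH9, the heavy chain of non-muscle myosin, was at 699, 726 and 714 against 2291, 2215 and 2359 CPM (-1.68, SE 0.10), calponin CNN1 at 3.33, 4.21 and 2.67 against 12.6, 12.3 and 9.55 CPM (-1.75, SE 0.26) and the myosin light chain kinase MYLK at 37.5, 40.1 and 40.2 against 95.2, 97.9 and 78 CPM (-1.20, SE 0.11). Higher were the cofactor MRTFB (0.89, SE 0.10) and the actin-binding caldesmon CALD1, at 439, 474 and 501 against 271, 281 and 340.0 CPM (0.66, SE 0.12).

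The CArG box, the element that SRF binds, also chosen after the values were seen, was in 8 of 28 promoters of this list (28.6%), against 1.06% of all tested genes. FHL2, a LIM protein named here for its promoter and not by the naming rule, was counted at 54.9, 48.9 and 48.2 against 100.3, 93.6 and 98.8 CPM (log2 -0.95, SE 0.11, edgeR adjusted p = 1.16e-07). Its promoter (chr2:105438514-105438763, minus strand, RefSeq, GRCh38.p14) carries the box in capitals 101 bases before the start.
FHL2: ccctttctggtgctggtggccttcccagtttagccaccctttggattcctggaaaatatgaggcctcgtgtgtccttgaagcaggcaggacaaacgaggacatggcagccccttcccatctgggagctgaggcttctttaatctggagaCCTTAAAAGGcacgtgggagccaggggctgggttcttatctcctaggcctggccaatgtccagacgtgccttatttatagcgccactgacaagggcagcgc

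AP-1 family genes, which encode the partners that form this dimeric factor, showed 9 of 13 lower and 0 higher, with a median of -0.85. Relative to EV, 2 were higher and 0 lower in TAZ-CAMTA1 (median -0.17). In TAZ4SA-labelled 10 were higher than in EV and 1 lower (median 1.26). FOSL1 was counted at 8.70, 9.47 and 6.97 against 152, 138 and 86.0 CPM (log2 -3.91, SE 0.33, edgeR adjusted p = 1.09e-09), JUN at 28.6, 33.9 and 38.6 against 156, 161 and 129 CPM (-2.14, SE 0.18) and MAFF at 7.07, 6.12 and 7.18 against 27.6, 26.3 and 19.9 CPM (-1.86, SE 0.20). JUND did not pass: its TAZ-CAMTA1 libraries stood at 19.5, 19.8 and 51.7 CPM, so that replicate 3 was apart from the other two, against 41.6, 40.7 and 36.9 CPM. Without that replicate JUND was lower as well, at -1.01.

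Epithelial genes were lower and several mesenchymal ones higher in TAZ-CAMTA1. Of 7 epithelial markers tested 5 were lower and 0 higher (median -1.49). Relative to EV, 3 were higher and 0 lower in TAZ-CAMTA1 (median 0.38). In TAZ4SA-labelled 4 were higher than in EV and 1 lower (median 2.70). The simple keratins KRT8 and KRT18, which pair in filaments, were at 218, 239 and 171 against 992, 1067 and 912 CPM and at 258, 269 and 229 against 1059.8, 1071 and 964 CPM (log2 -2.24, SE 0.17, and -2.03, SE 0.15; edgeR adjusted p = 2.19e-10 and 7.09e-11). EV stood at 51.4, 48.7 and 41.6 CPM for KRT8 and 161, 158 and 155 CPM for KRT18, below both groups. Both keratins have processed copies in the genome, and each overlaps a gene on the other strand, so their counts are uncertain. The tight junction protein CLDN3 was lower (-2.67, SE 0.23). The defining epithelial adhesion molecule EPCAM was hardly counted, at 1.17, 0.958 and 0.675 against 0.519, 0.683 and 0.537 CPM. EPCAM did not pass (log2 0.68, edgeR adjusted p = 0.101), but was called higher under total-count scaling (0.87). Of 8 mesenchymal markers 6 were higher and 1 was lower (median 1.61), and the lower one was the filament protein VIM, at 809, 801 and 632 against 1142, 1146 and 873 CPM (-0.50, SE 0.13). Its higher members are FN1, SPARC, PDGFRB and 3 collagen chains, described with their families below. Of the transcription factors known for epithelial-mesenchymal transition SNAI1 was lower (-0.68, SE 0.11) and ZEB1 higher (0.69, SE 0.23), though ZEB1 was not called without TAZ4SA replicate 2 (0.60).

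**Figure D3:**
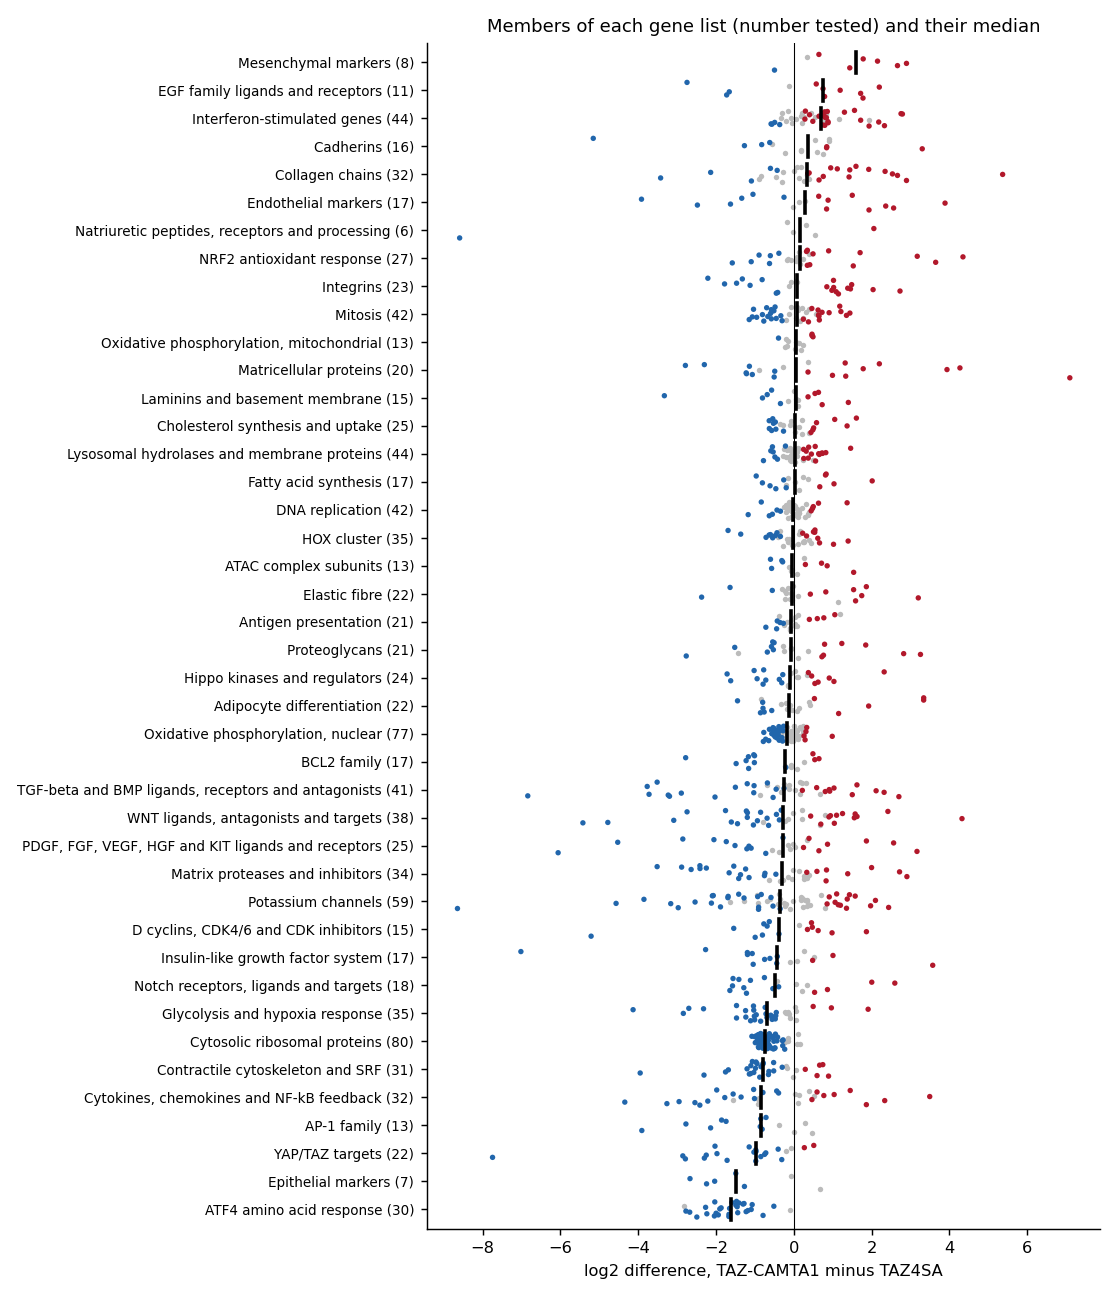
The log2 difference, TAZ-CAMTA1 minus TAZ4SA-labelled, of each tested member (points) of the gene lists, sorted by median (black bar); red points are called higher, blue called lower and grey not called. The amino acid response, at -1.62, is at the bottom and the mesenchymal markers, at 1.61, are at the top.

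Matrix genes moved in both directions. FN1, fibronectin, was counted at 6047, 4904 and 4659 CPM in TAZ-CAMTA1, 1326, 1400.4 and 781 CPM in TAZ4SA-labelled and 3553, 4407 and 4514 CPM in EV (log2 2.15, SE 0.23, edgeR adjusted p = 5.4e-08), and the collagen-binding SPARC at 2469, 2241 and 1880.3 against 724, 708 and 479 CPM (1.79, SE 0.17). Of 32 collagen chains 15 were higher and 5 lower, with a median of 0.34. COL1A2, a chain of type I collagen, stood at 193, 184 and 149 against 33.3, 32.7 and 17.0 CPM (2.67, SE 0.24), its partner chain COL1A1 at 45.2, 50.5 and 26.6 against 19.7, 17.5 and 7.87 CPM (1.44, SE 0.34) and COL3A1 at 23.5, 19.5 and 21.0 against 3.19, 3.41 and 2.00 CPM (2.90, SE 0.19). COL15A1 of the basement membrane zone was at 483, 471 and 466 against 87.2, 82.7 and 74.7 CPM (2.54, SE 0.23), and COL14A1 was higher at low counts (5.37, SE 0.48). The lower chains were COL8A1, at 21.1, 19.7 and 18.1 against 222, 246 and 164 CPM (-3.42, SE 0.18), COL13A1 (-2.14, SE 0.18), COL9A2 at low counts (-1.09, SE 0.30), COL18A1 (-0.60) and COL4A2 (-0.43). COL6A2, at 441, 398 and 487 against 422, 401 and 348 CPM, did not pass.

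Matricellular proteins split, with 9 of 20 higher and 8 lower. For these and the next lists the share of all genes was 27.1% in each direction. Beside POSTN and SPP1, CCN3 was higher at 6.28, 6.57 and 6.29 against 1.20, 1.71 and 1.27 CPM (log2 2.20, SE 0.17, edgeR adjusted p = 1.38e-10), opposite to its relatives CCN1 and CCN2. The thrombospondins THBS1 (-1.21, SE 0.14) and THBS2 (-1.22, SE 0.18) were lower. Of 22 elastic fibre genes 7 were higher, among them fibrillin FBN1 (1.59, SE 0.13), EMILIN1 (1.87, SE 0.17) and LTBP1 (1.75, SE 0.16), and 3 were lower, EFEMP1 (-2.37, SE 0.18) and the lysyl oxidases LOXL4 (-1.64) and LOX (-0.55). In the basement membrane LAMA4 was higher, at 395, 384 and 349 against 147, 150.0 and 129 CPM (1.40, SE 0.09), and LAMB1, at 1261, 1317 and 1348 against 1212, 1235 and 1217 CPM, did not pass. Of the proteoglycans VCAN (2.83, SE 0.24), GPC3 (1.85) and GPC6 (1.24) were higher, and PRELP (-2.76) and SDC4 (-1.52, SE 0.13) lower. Together the lists of laminins and proteoglycans had as many higher as lower genes, 5 and 5 of 15 and 7 and 7 of 21.

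Integrins, the receptors of these matrix proteins, had 11 of 23 higher and 8 lower. The collagen receptor chains ITGA1, ITGA2 and ITGA11 were higher together, at 352, 373 and 420.4 against 90.0, 94.8 and 93.7 CPM, 166, 196 and 207 against 69.2, 65.7 and 72.2 CPM and 204, 195 and 182 against 79.0, 72.3 and 55.8 CPM (log2 2.04, 1.46 and 1.49). ITGA9 was higher too (2.73, SE 0.21). The leukocyte chains ITGB2 and ITGAX and the laminin receptor chains ITGB4 and ITGA7 were lower (log2 -2.21, -1.47, -1.32 and -1.12). Among 34 matrix proteases and inhibitors 15 were lower and 8 higher (median -0.31). The plasminogen system parted within itself. The urokinase receptor PLAUR was counted at 9.04, 11.01 and 11.6 against 80.9, 87.2 and 66.2 CPM (log2 -2.88, SE 0.17, edgeR adjusted p = 1.45e-12) and SERPINB2 was lower (-2.41), while the tissue activator PLAT was higher, at 456, 437 and 325 against 121, 112 and 70.9 CPM (2.00, SE 0.20). Of the secreted metalloproteases ADAMTS9 was higher (2.72) and ADAMTS16 lower (-2.64).

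Among growth factor ligands PDGFB showed one of the largest differences, at 0.492, 0.752 and 0.461 CPM in TAZ-CAMTA1 and 40.4, 40.5 and 33.5 CPM in TAZ4SA-labelled, with 0.276, 0.457 and 0.436 CPM in EV (log2 -6.06, SE 0.24, edgeR adjusted p = 3.72e-15). Its receptor chain PDGFRA went the other way, at 65.3, 61.9 and 57.8 against 6.94, 6.996 and 6.64 CPM (3.17, SE 0.11), and PDGFRB was higher by less (0.65, SE 0.12). Of the VEGF receptors KDR was higher, at 46.7, 36.6 and 29.1 against 7.498, 5.80 and 5.64 CPM (2.57, SE 0.24), and FLT4 lower, at 1.06, 0.821 and 0.737 against 19.7, 20.7 and 19.7 CPM (-4.53, SE 0.29). The AXL ligand GAS6 was lower with its receptor (-2.05, SE 0.19). The whole list of 25 genes had 7 higher and 11 lower. In the EGF family 7 of 11 were higher and 3 lower, the neuregulin NRG1 (1.19, SE 0.12) and EGF (1.78, SE 0.21) on the one side and the ligand HBEGF (-1.66, SE 0.13) and the receptor ERBB3 (-2.74, SE 0.20) on the other.

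In the TGF-beta and BMP system 11 of 41 genes were higher and 16 lower, beside 27.1% of all genes in each direction. The TGF-beta ligands moved apart, TGFB3 being higher at 34.5, 28.2 and 28.7 against 5.19, 4.69 and 4.14 CPM (log2 2.70, SE 0.16, edgeR adjusted p = 1.45e-12) and TGFB2 lower, as given above. BMP7 was higher (2.32, SE 0.19), as were the co-receptor TGFBR3 (2.12, SE 0.17) and the decoy receptor BAMBI (1.62, SE 0.17). The activin antagonist FST (-3.77, SE 0.25) and GDF15 (-3.72, SE 0.52) were lower. Of 38 WNT genes 12 were higher and 18 lower. The ligands WNT7A, at 0.151, 0.103 and 0.153 against 7.26, 7.34 and 3.49 CPM (-5.42, SE 0.42), and WNT7B (-4.78, SE 0.36) were lower, as was the antagonist DKK1, at 4.54, 5.78 and 4.70 against 45.1, 42.4 and 40.1 CPM (-3.09, SE 0.17), whereas the receptors LGR4, LRP6, FZD4 and FZD1 were higher (log2 2.42, 1.58, 1.63 and 1.56).

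In the Notch pathway 10 of 18 genes were lower and 4 higher (median -0.49). Relative to EV, 2 were higher and 1 lower in TAZ-CAMTA1 (median 0.04). In TAZ4SA-labelled 10 were higher than in EV and 3 lower (median 0.48). NOTCH1 was counted at 20.3, 23.2 and 26.3 against 55.2, 51.5 and 55.4 CPM (log2 -1.22, SE 0.15, edgeR adjusted p = 2.57e-07), and the glycosyltransferase LFNG (-1.41) and the feedback inhibitor NRARP (-1.11) were lower as well. The effector HEY1 was higher, at 66.3, 58.4 and 53.4 against 11.1, 10.9 and 7.44 CPM (2.60, SE 0.17), with the ligand JAG1 (0.87) and NOTCH2 (0.54). In the insulin-like growth factor system 10 of 17 were lower and 3 higher (median -0.44). PAPPA2, a protease that frees these factors from their binding proteins, held at most 3 counts in each TAZ-CAMTA1 library and was at least 62.8-fold lower there, with TAZ4SA-labelled at 6.10, 6.74 and 6.48 CPM. Its relative PAPPA (-1.19, SE 0.33) and the adaptor IRS1 (-1.19, SE 0.13) were lower, and the binding protein IGFBP7 was higher, at 201, 177 and 228 against 109, 104 and 87.8 CPM (1.01, SE 0.12).

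Interferon-stimulated genes were higher in TAZ-CAMTA1. These genes encode antiviral proteins and are switched on by interferon signalling. Of 44 tested 23 were higher and 4 lower, with a median of 0.70. Against EV the median was 0.03 in TAZ-CAMTA1, with 1 higher and 1 lower, beside 3.54% and 1.48% of all genes. It was -0.50 in the TAZ4SA-labelled libraries, with 2 higher and 21 lower, beside 25.3% and 24.5%. IFIT2 was counted at 29.5, 33.7 and 33.4 CPM, 5.58, 5.93 and 7.63 CPM and, in EV, 27.9, 27.1 and 28.5 CPM (log2 2.33, SE 0.16, edgeR adjusted p = 3.89e-11), and IFIT1 at 49.7, 55.8 and 46.7 against 11.8, 13.7 and 14.3 CPM (1.94, SE 0.19). The antiviral factors SAMD9, at 20.7, 21.5 and 29.2 against 3.39, 2.60 and 4.26 CPM, and SAMD9L, at 28.7, 32.2 and 43.2 against 5.03, 3.75 and 6.56 CPM, differed most (2.79, SE 0.30, and 2.76, SE 0.29). The lower members were MX1 (-0.58), ISG20 (-0.56), OAS3 (-0.49) and ISG15 (-0.36). ISG20 lost its call without TAZ-CAMTA1 replicate 3 (-0.42) or TAZ4SA replicate 1 (-0.45), and ISG15 without any one of the 6 libraries other than TAZ4SA replicate 2 (-0.39 to -0.31).

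An interferon-sensitive element, GAAANNGAAA or TTTCNNTTTC, chosen after the values were seen, was in 20 of 34 promoters of this list (58.8%) and in 2.81% of all tested ones; MX1, ISG20, OAS3 and ISG15 were among the 20. IFI44, named for its promoter and not by the naming rule, was counted at 5.71, 4.82 and 6.78 against 1.40, 1.58 and 2.26 CPM (log2 1.72, SE 0.27, edgeR adjusted p = 1.17e-05). Its promoter (chr1:78649539-78649788, plus strand, RefSeq, GRCh38.p14) is shown with the element in capitals 18 bases before the start.
IFI44: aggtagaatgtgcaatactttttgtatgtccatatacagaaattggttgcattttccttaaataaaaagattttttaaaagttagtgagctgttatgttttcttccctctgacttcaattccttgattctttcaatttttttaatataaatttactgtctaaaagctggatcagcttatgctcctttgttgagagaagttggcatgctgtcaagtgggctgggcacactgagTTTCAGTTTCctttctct

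**Figure D4:**
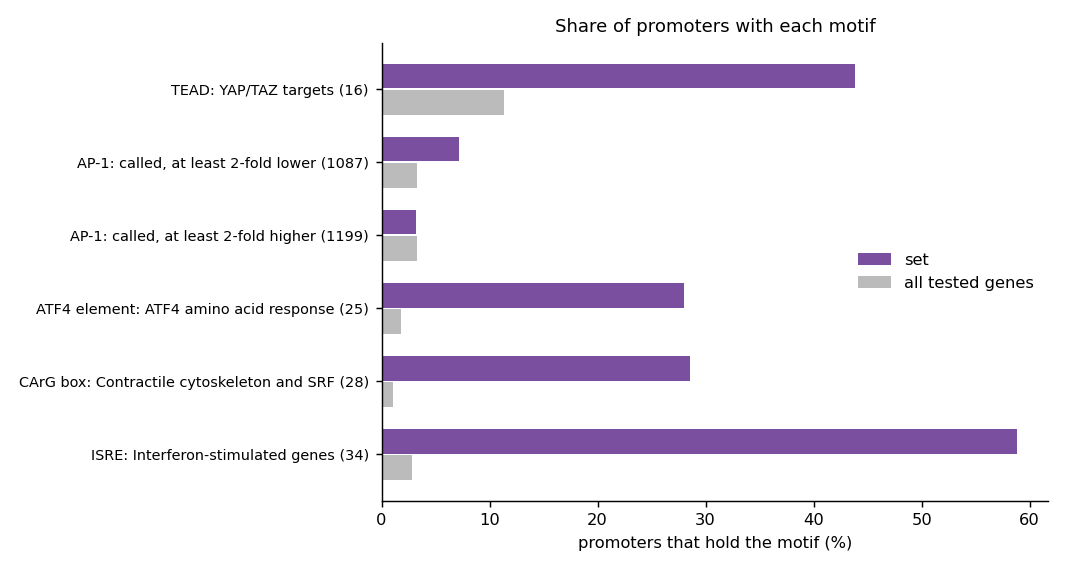
Percentage of promoters (250 bases before to 50 after the RefSeq start) that hold each motif, in a gene set (purple; number of promoters in brackets) and in all 12949 tested genes with a promoter sequence (grey). The set shares range from 58.8% for the interferon element to 3.17% for AP-1 in the genes at least 2-fold higher, and the shares in all tested genes from 1.06% for the CArG box to 11.3% for TEAD.

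Cytokines and inflammatory feedback genes had 15 of 32 lower and 8 higher (median -0.84). Relative to EV, 2 were higher and 1 lower in TAZ-CAMTA1 (median 0.14). In TAZ4SA-labelled 15 were higher than in EV and 5 lower (median 0.81). The fibrosis-associated IL11 was counted at 1.32, 1.85 and 1.81 against 17.5, 17.1 and 13.5 CPM (log2 -3.26, SE 0.21, edgeR adjusted p = 8.94e-12), and IL32 (-2.95, SE 0.27), IL1B (-2.41, SE 0.34) and LIF (-2.21, SE 0.23) were lower. The chemokine CXCL12 was higher, at 7.83, 7.66 and 4.27 against 0.558, 0.683 and 0.499 CPM (3.50, SE 0.42), with the death ligand TNFSF10 (2.34), the receptor IL1R1 (1.87) and the adhesion molecule VCAM1 (1.45). In antigen presentation 42.86% of 21 genes were called, against 54.2% of all genes. The 4 higher ones included the peptidases ERAP1 (0.61) and ERAP2 (0.77), and the 5 lower ones HLA-E (-0.72). B2M, at 437, 441 and 464 against 383, 421 and 452 CPM, did not pass.

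Cell cycle genes gave no common direction. Of 42 DNA replication genes 5 were higher and 6 lower, or 26.19% against 54.2% of all genes, and the median of -0.02 changed sign under total-count scaling. The licensing factor CDT1 was lower, at 25.7, 27.5 and 28.8 against 68.4, 62.9 and 53.7 CPM (log2 -1.17, SE 0.22, edgeR adjusted p = 8.42e-05), and the cyclin CCNE2 was higher (1.37, SE 0.22). Of 42 mitosis genes 13 were higher and 17 lower. CDC20, at 94.7, 99.9 and 82.3 against 219, 214 and 180.1 CPM (-1.15, SE 0.13), AURKB (-1.07), UBE2C (-1.03) and AURKA (-0.95) were lower, while CENPE (1.44, SE 0.40), KIF20B (1.36), TTK (1.21) and ASPM (1.18) were higher and TOP2A, at 409, 475 and 510.2 against 341, 365 and 531 CPM, did not pass. Length moved with direction here as well: 9 of the 42 were in the shortest class and had a median of -0.70. The part of length was not tested.

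The regulators of the first cell cycle checkpoint also went both ways. Of 15 D cyclins, their kinases and CDK inhibitors 6 were higher and 8 lower (median -0.38). CCND2, a D cyclin, was at 0.0757, 0.205 and 0.0614 against 2.43, 3.80 and 6.83 CPM (log2 -5.21, SE 0.49, edgeR adjusted p = 4.58e-09), CCND1 at 148, 160.2 and 142 against 314, 322 and 259.9 CPM (-0.99, SE 0.12) and CCND3 was lower too (-0.81, SE 0.10). The retinoblastoma gene RB1, which D cyclins act on, was higher, at 129.9, 143 and 149.9 against 35.5, 37.5 and 42.8 CPM (1.87, SE 0.14), with CDK6 (0.98, SE 0.18). The inhibitor CDKN1A, p21, was lower, at 6.28, 4.41 and 6.63 against 18.03, 17.1 and 15.4 CPM (-1.54, SE 0.15), and CDKN1B, p27, higher (0.48, SE 0.11). In the BCL2 family 9 of 17 were lower and 3 higher. The survival gene BCL2L1 was lower, at 122.9, 121 and 113 against 277, 263 and 257 CPM (-1.16, SE 0.08), and so were the death-promoting BBC3 (-1.17) and BOK (-1.48), while the death-promoting BCL2L11 (0.54) and BMF (0.65) were higher.

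Antioxidant genes of the NRF2 pathway were mixed, with 11 of 27 higher and 6 lower. NQO1 was counted at 1256, 1063 and 913 against 389, 374 and 357 CPM (log2 1.53, SE 0.14, edgeR adjusted p = 5.09e-09) and AKR1B10 was higher (4.35, SE 0.57), whereas thioredoxin reductase TXNRD1 was lower, at 471, 481 and 414 against 1200.1, 1319 and 1569 CPM (-1.58, SE 0.17). The higher call of FTH1 rests on 1 library, since its TAZ-CAMTA1 libraries stood at 68.4, 59.5 and 469.7 CPM against 64.9, 57.2 and 61.3 CPM, and without replicate 3 the log2 difference fell from 1.71 to 0.07. Of the chaperones CRYAB, a small heat shock protein, was higher at 70.8, 67.2 and 57.5 against 9.25, 8.62 and 5.95 CPM (3.04, SE 0.23), with EV at 4.60, 5.30 and 3.39 CPM, and HSP90AB1 was lower (-0.64, SE 0.10). Lysosomal genes had 14 of 44 higher, led by GPNMB at 139, 121 and 134 against 43.1, 49.1 and 50.8 CPM (1.46, SE 0.17), and 7 lower, led by cathepsin CTSB (-0.78, SE 0.12).

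Lipid metabolism genes went both ways, to be read against the 54.2% of all genes called, 27.1% in each direction. Of 25 cholesterol genes 7 were higher and 8 lower, among the higher ones the sterol carrier STARD4 (1.61, SE 0.14), and of 17 fatty acid genes 5 were higher and 6 lower, with ELOVL6 (2.02, SE 0.14) and ACSL1 (-0.97, SE 0.09) at either end. In SW872, a line of fat cell lineage, genes of adipocyte identity were also followed. The early factor EBF1 was counted at 35.2, 36.7 and 34.1 against 3.59, 3.50 and 3.38 CPM (log2 3.34, SE 0.20, edgeR adjusted p = 3.58e-12), the master regulator PPARG at 66.8, 69.7 and 55.3 against 27.0, 28.3 and 30.9 CPM (1.15, SE 0.14) and lipoprotein lipase LPL at 157, 163 and 115 against 41.6, 42.7 and 30.4 CPM (1.93, SE 0.16). KLF15 (-1.45), DGAT2 (-0.80) and PLIN3 (-0.79) were lower. Over the list 5 of 22 were higher and 6 lower.

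The fusion is known from a vascular tumour, so endothelial genes were set out as well. Of 17 markers 8 were higher and 6 lower. The ETS factor ERG was counted at 9.19, 8.11 and 7.40 against 0.838, 0.512 and 0.307 CPM (log2 3.89, SE 0.30, edgeR adjusted p = 2.15e-10), the angiopoietin receptor TEK at 59.8, 56.9 and 58.2 against 11.4, 12.3 and 10.3 CPM (2.36, SE 0.21) and PECAM1 at 9.31, 7.05 and 7.77 against 2.31, 2.30 and 1.69 CPM (1.93, SE 0.17). The angiopoietin receptor relative TIE1 was lower, at 55.6, 55.1 and 49.8 against 324, 315 and 255 CPM (-2.48, SE 0.13), with ROBO4 (-3.92, SE 0.25), VWF (-1.63, SE 0.34) and EGFL7 (-1.05, SE 0.14). In EV these genes were at 6.03 CPM for ERG, 27.6 for TEK, 6.998 for PECAM1 and 93.7 for TIE1. Against EV, 1 of the 17 was higher in TAZ-CAMTA1 and 1 lower, beside 3.54% and 1.48% of all genes.

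Smaller families were described by their counts, to be read against the 54.2% of all genes called, 27.1% in each direction. Potassium channels had 13 of 59 higher, with KCNK2 (2.44) and KCNE4 (1.98) leading, and 21 lower, with KCNQ3 (-4.57) and KCNK13 (-3.85) after KCND3. Of the natriuretic system the clearance receptor NPR3 was higher, at 7.603, 9.23 and 6.601 against 1.40, 2.39 and 1.84 CPM (log2 2.06, SE 0.27), opposite to NPPB, and 4 of 6 did not pass. Cadherins had 3 higher and 4 lower of 16, and CDH4 stood at 0.946, 1.13 and 0.952 against 34.5, 35.9 and 37.9 CPM (-5.16, SE 0.24), with CDH13 (-0.82) lower and CDH3 (0.85) higher. Neurofilament and neuronal microtubule genes had 3 of 15 higher and 7 lower, with STMN3 lower (-0.98, SE 0.11). The neural cell adhesion molecule NCAM1 was higher (0.76, SE 0.11). The HOX clusters had 9 of 35 higher and 9 lower, with HOXA5 (1.40, SE 0.11) and HOXB9 (-1.69, SE 0.13) furthest apart. The medians of the Hippo, elastic fibre, proteoglycan, DNA replication, adipocyte, antigen presentation, nuclear oxidative phosphorylation, HOX and ATAC lists changed sign under total-count scaling.

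The same question can be put to the other pair, YAP-TFE3 against YAP5SA, which shares no library with the first. That comparison called 10375 of 19915 genes (52.1%), 5551 higher (27.9%) and 4824 lower (24.2%) in YAP-TFE3. The 2 differences were themselves compared in the same fit, a contrast added after the data were seen, and differed for 5907 genes (29.7%) at an edgeR adjusted p under 0.05. YAP/TAZ targets were mostly lower in both fusions, with medians of -0.98 and -0.93. Even so, the difference was lower in the first pair for 11 of the 22 and higher for 2, beside 16.7% and 13.0% of all genes. The median of the difference between the pairs was -0.39. CCN1 stood at 141, 151 and 136 CPM in YAP-TFE3 and 742, 726 and 729 CPM in YAP5SA (log2 -2.36), AXL at 134, 155 and 96.7 against 858, 875 and 737 CPM (-2.68) and TAGLN at 6.73, 8.0 and 9.53 against 261, 285 and 185 CPM (-4.91). Ribosomal proteins had medians of -0.73 and -0.69, and 2 of 80 differed between the pairs. The contractile list had medians of -0.79 and -0.72, but the difference was higher in the first pair for 8 of its 31 genes and lower for 5. POSTN, SPP1 and FBLN5 were higher in both fusions (log2 in the second pair 5.15, 4.95 and 3.41). Interferon-stimulated genes had medians of 0.70 and 0.98, with 39 of 44 higher and 3 lower in YAP-TFE3. Their difference was higher in the first pair for 3 genes and lower for 17.

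Other groups parted between the pairs. The amino acid response had a median of -1.62 in the first pair and 0.10 in the second, where 6 of its genes were higher and 7 lower, and 28 of 30 differed between the pairs. YAP-TFE3 replicate 3 stood apart from replicates 1 and 2 on several of these genes. Without it the median in the second pair was 0.31, with 15 genes higher and 5 lower, and without replicate 2 it was -0.11, while 26 to 28 genes differed between the pairs with any 1 of the 12 libraries left out. CHAC1 was at 58.3, 69.7 and 19.1 CPM in YAP-TFE3 and 36.5, 39.6 and 51.2 CPM in YAP5SA, and its 2 differences were -2.88 apart on the log2 scale (SE 0.45, edgeR adjusted p = 3.07e-05); for ATF3 this value was -3.09 (SE 0.33). DNA replication and mitosis genes had medians of -0.02 and 0.07 in the first pair and -1.21 and -1.15 in the second, where 38 and 34 of 42 genes each were lower. The pairs differed for 36 genes of either list. CDC20 was at 40.8, 39.4 and 47.9 CPM in YAP-TFE3 and 191, 199.5 and 148 CPM in YAP5SA. Lysosomal genes, which TFE3 is known to drive, had 41 of 44 higher in YAP-TFE3 (median 0.90 against 0.04 in the first pair), with GPNMB at 938, 1007 and 1138 against 71.9, 65.7 and 65.9 CPM. Collagens COL1A2 and COL3A1, higher in TAZ-CAMTA1 than in TAZ4SA-labelled, were at 84.4, 101 and 98.3 against 135, 120.1 and 62.8 CPM and at 7.39, 8.598 and 8.98 against 10.8, 10 and 6.74 CPM in the second pair, and their differences were 2.83 (SE 0.33, edgeR adjusted p = 5.29e-07) and 3.03 (SE 0.26) apart. Over the 32 collagen chains the difference was higher in the first pair for 12 and lower for 6, with a median of 0.40. The shares of all genes were 13.0% and 16.7%.

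**Figure D5:**
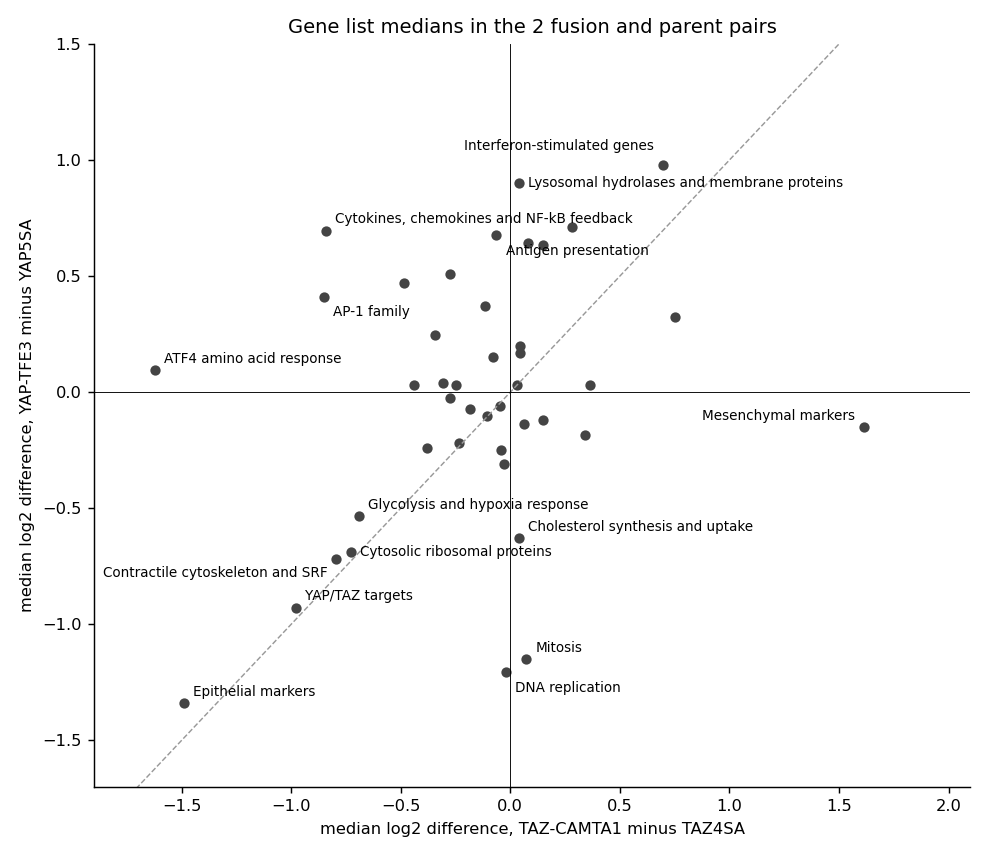
Median log2 difference of each gene list in the 2 pairs, TAZ-CAMTA1 minus TAZ4SA-labelled on the horizontal axis and YAP-TFE3 minus YAP5SA on the vertical axis, with the line of equal values dashed. Ribosomal proteins and YAP/TAZ targets lie near the line, the amino acid response lies far to the left of it at -1.62 and 0.10, and DNA replication and mitosis lie below it.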

How the data were processed

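RNA-seq counts of 24 SW872 libraries were taken as deposited. Per the labels and the study's methods, the authors sequenced poly(A) RNA as stranded paired-end libraries and processed the reads with bcbio-nextgen and Hisat2 against hg38 with Ensembl annotation, and the deposited counts are whole reads per Ensembl gene. The tool that made them, the use of strand and the treatment of reads with several matches are not given in the sources used here. The authors' own tests, with DESeq2 on another quantification, were not used.

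Genes whose mean reached 5 counts over the 6 TAZ-CAMTA1 and TAZ4SA-labelled libraries were kept (19915). All 8 groups entered 1 edgeR 4.0.16 quasi-likelihood fit (R 4.3.3, TMM scaling, 1 mean per group) and were compared by contrasts, with Benjamini-Hochberg adjustment over all genes. Besides the 5 groups named above these were CAMTA1, TFE3 and a sub-confluent empty vector. CAMTA1 cells were collected at sub-confluence as well, and all groups entered the shared estimate of spread. A gene was called at an adjusted p under 0.05, and SE is the log2 difference divided by the square root of F. CPM are counts per 1000000 of the TMM-scaled library. The libraries held 19700277 to 35287476 counts, which limits precision for genes of a few counts, and floors cover counting error only. Replicates came from separate transductions of 1 line.

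Named were construct and TEAD genes, genes with human primers in the study, the 12 genes furthest in each direction with a mean count of 100 or more and no overlap, all YAP/TAZ targets, and in each list up to 4 higher and 4 lower members with a mean count of 50 or more and up to 2 abundant members that did not pass. Some members so named, mainly ones that did not pass or whose call 1 left-out library ended, are covered by the counts alone, and a few other genes are not reported here. Gene lists and members were chosen with earlier results of these data known. Promoters and motifs used RefSeq sequence of GRCh38.p14, and overlaps and lengths GENCODE 44. The alternatives were other scaling, count minimums, the 6 libraries alone, a replicate block, a minimum effect, DESeq2 1.42.0 and leaving out each library.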

Additional observations from a re-analysis of the deposited data

Results flagged for a closer look

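The difference between fusion and parent was itself different in the 2 pairs, TAZ-CAMTA1 against TAZ4SA-labelled and YAP-TFE3 against YAP5SA, for 5907 genes by the edgeR contrast of the differences, 29.7% of those tested, with 2581 higher (13.0%) and 3326 lower (16.7%) in the first pair. In the amino acid response 28 of 30 genes differed, all lower in the first pair, and the median of the difference was -1.695. Its member ATF3 stood at 70.1, 72.8 and 25.6 CPM in YAP-TFE3 and 46.0, 43.9 and 45.0 CPM in YAP5SA, with YAP-TFE3 replicate 3 below the other two; without that library the median of the difference was -1.96. DNA replication had 36 of 42 genes that differed and mitosis 36 of 42, all higher in the first pair, with median differences of 1.13 and 1.10. Lysosomal genes had 35 of 44 that differed, 34 of them lower in the first pair, with a median of -0.94. In the AP-1 family 9 of 13 differed, in the cytokine list 19 of 32 and in antigen presentation 12 of 21, with medians of -1.26, -1.01 and -0.76. YAP-TFE3 replicate 3 was also the lowest of its group for FOSL1 and GDF15. FOSL1 was at 32.1, 35.1 and 13.7 CPM in YAP-TFE3 and 87.4, 86.7 and 53.7 CPM in YAP5SA, and its 2 differences lay -2.41 apart (SE 0.43, edgeR adjusted p = 0.000139). GDF15, lower in TAZ-CAMTA1 than in TAZ4SA-labelled, stood at 67.1, 75.4 and 17.0 CPM in YAP-TFE3 and 2.36, 1.99 and 4.17 CPM in YAP5SA, and its differences lay -7.93 apart (SE 0.64, edgeR adjusted p = 3.1e-09). Without YAP-TFE3 replicate 3 the values were -2.73 and -8.35.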

How the results depend on the processing

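The count of 10797 called genes was 10782 with RLE size factors, 11250 with total-count scaling, 11264 of 26070 genes at a mean of at least 1 count, 9638 of 15801 at a mean of at least 20, 10882 with the 6 libraries alone and 10588 with DESeq2. A test against a log2 change of 1 called 1649 genes, 667 higher and 982 lower; it asks for a larger effect by construction. Leaving out 1 library gave 9529 to 10339 calls, and 4981 to 6636 genes that differed between the 2 pairs, over 12 libraries and chosen after the data were seen. No called gene was called in the other direction under any of these, but 34 changed sign without a call under total-count scaling, which shifted the median by 0.19, and 7 without TAZ-CAMTA1 replicate 3. Under total-count scaling 9 list medians turned positive, Hippo (0.0822), nuclear oxidative phosphorylation (0.0056), proteoglycan (0.107), adipocyte (0.0756), elastic fibre (0.146), antigen presentation (0.128), DNA replication (0.175), HOX (0.157) and ATAC (0.15), as did the uncalled PTPN14 (0.126) and YEATS2 (0.0745), and COL4A2, DOCK5, FJX1, IGFBP3, ISG15, ISG20, LATS2, LOX, OAS3, TEAD3 and TEAD4 lost their calls, while B2M, COL6A2, EPCAM, LAMA1, LAMB1, POLR2A and TEAD2 gained calls as higher. The natriuretic median turned to -0.11 at a mean of at least 20 counts, which leaves 4 genes, the HOX median to 0.03 at that minimum, and the fatty acid median to -0.002 at a mean of at least 1 count. With 1 library left out 11 list medians that lay between -0.063 and 0.073 changed sign, those of elastic fibre, matricellular, antigen presentation, DNA replication, mitosis, HOX, ATAC, cholesterol, fatty acid, mitochondrial oxidative phosphorylation and lysosomal genes; the last was between -0.0004 and 0.0636, and negative without TAZ-CAMTA1 replicate 1. Other causes were not tested. Deviations of same-numbered libraries were weakly correlated, at 0.13, 0.04 and 0.22, and 5 of 6 libraries correlated best with their own number. The main fit did not use the replicate numbers, and a fit with the replicate block called 10881 genes. Depth limits genes of a few counts, where the 138 and 197 genes at the floor in TAZ4SA-labelled and TAZ-CAMTA1 have bounds rather than folds.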
